A study of Mus musculus with 12 samples.

Results

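Newly made lysosomal enzymes are sorted by a small set of proteins, and the RNA of 10 genes that encode them is described here in mouse quadriceps. The genes were chosen by name for their known role, and all 10 were found among the 15344 genes of the expression tables. They fall into 4 roles: the enzymes that make the mannose-6-phosphate tag (Gnptab, Gnptg and Nagpa), the receptors that bind it (Igf2r and M6pr), the receptors that carry lysosomal proteins without it (Sort1 and Scarb2), and the adaptors that load receptors into vesicles at the Golgi (Gga1, Gga2 and Gga3).

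RNA-Seq was performed on quadriceps of 12 mice with a C57BL/6 background, all 6 months old, in 3 groups of 4. WT mice were untreated. KO mice lack acid alpha-glucosidase (genotype GAA Knock-out), the lysosomal enzyme that breaks down glycogen and whose deficiency causes Pompe disease, and were injected with PBS. AAV mice carried the same knock-out and received AAV2/8-LSPhGAApA (2e12 vg/kg, tail vein) at 2 months, 4 months before harvest. The methods describe the injected knock-out mice as male and the vector as one that expresses human GAA from a liver-specific promoter, so that muscle would receive the enzyme from blood. KO mice therefore served as the control for treatment and as the disease group, and the comparisons KO against WT and AAV against KO share the same 4 KO libraries. Nothing in the labels says how the mice were assigned, and p-values measure the spread between these animals.

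Lysosomal enzymes receive their tag in the Golgi in a pair of steps. GlcNAc-1-phosphotransferase, built from the products of Gnptab and Gnptg, adds a phosphate with a covering sugar to mannose residues, and the uncovering enzyme, the product of Nagpa, removes that sugar. Both mannose-6-phosphate receptors then bind the tag and hand the enzyme to late endosomes. The larger of them, Igf2r, also sits on the cell surface and takes up tagged enzyme from outside the cell, the route used by circulating GAA, and it binds and clears the growth factor Igf2. Sortilin (Sort1) carries several lysosomal proteins without the tag and in muscle and fat helps form the vesicles that hold the glucose transporter GLUT4. Scarb2, also called LIMP-2, is a lysosomal membrane protein that carries an enzyme cargo of its own. GGA proteins bind the tails of sortilin and of the mannose-6-phosphate receptors and recruit clathrin.

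Total reads lay between 32299356 and 47379737 in WT libraries, between 31225360 and 40846896 in KO libraries and between 22122233 and 31974197 in AAV libraries. The RNA of the targeted gene went against the labels. Gaa had normalized counts (reads divided by the library's size factor) of 343, 14640, 324 and 460 in the libraries labelled WT, of 12151, 13075, 11936 and 12895 in those labelled KO, and of 947, 587, 500 and 9854 in those labelled AAV. Gaa was thus high in all 4 libraries labelled KO, in 1 labelled WT and in 1 labelled AAV, and groups are named below only as the libraries are labelled. By the methods, the quadriceps were also assayed for GAA activity and glycogen, which these RNA values do not show. Over 15154 genes, 10 of the 12 libraries lay nearest to the mean of their own group. WT replicate 3 lay nearest to the libraries labelled AAV, and AAV replicate 4 to those labelled WT. WT replicate 3 was also nearer to KO than to the other WT libraries (root mean square log2 distance 0.795 against 0.934, and 0.768 to AAV). Fast myofibre markers (Acta1, Ckm and others, 6 of 6) were present in every library, and the hepatocyte markers Alb and Apoa1 summed to at most 37.6. Ddx3y, a gene of the Y chromosome, had 739 to 2651 normalized counts in libraries of the WT mice, whose sex the methods do not give.

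Markers of 4 cell types had members that passed between groups, while 0 of 6 fibroblast and 0 of 6 adipocyte markers passed in any comparison. The adipocyte markers had a median of 1.06 in KO against WT and summed to 15980 in KO replicate 3, against 4393 to 6430 in the other KO libraries. Among the 6 fast myofibre markers, Myh4 was higher in KO than in WT libraries (0.73, adjusted p = 0.0487 by limma), and 0 of 6 passed between AAV and KO. Their sums lay between 4.33e+06 and 5.71e+06 in WT, 5.36e+06 and 6.35e+06 in KO and 3.48e+06 and 6.04e+06 in AAV libraries. Slow myofibre markers (6 of 6 lower in KO than in WT libraries, 6 of 6 higher in AAV than in KO libraries) summed to 1633 to 5150 in WT, 397 to 476 in KO and 2178 to 21819 in AAV libraries. Macrophage markers (6 of 8 lower and 1 higher in KO than in WT, none of 8 called between AAV and KO) summed to 1526 to 5041, 847 to 1497 and 892 to 4615 in the same order. Endothelial markers (5 of 6 higher in KO than in WT, 1 higher and 1 lower in AAV than in KO) summed to 2309 to 5293, 5486 to 6995 and 4867 to 7405. Between AAV and WT 1 of these markers passed, the endothelial Egfl7 (1.5, adjusted p = 0.00973 by limma), with list medians of 0.89 for endothelial, 1.54 for slow myofibre and -0.66 for macrophage markers. None of these genes was at 0 in any library. In bulk muscle, fewer cells of a type and less RNA per cell cannot be told apart, and the part of these markers in the differences below was not tested.

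Promoter windows were available from RefSeq (GRCm38.p6) for 8 of the 10 genes, all but Sort1 and M6pr. Each window holds the 250 bases before a transcript start. The letters CACGTG, the core of the site bound by TFEB and related factors of the lysosomal gene programme, were searched on both strands, and lay in a window of 3 genes: Igf2r, Nagpa and Gnptg. Of 32851 windows of the same length, 6.02% hold CACGTG and 32.7% hold GGGCGG, the core of an SP1 site. The windows of Igf2r and Nagpa are shown because they hold CACGTG and no annotated exon base. The window of Gnptg with CACGTG, which stands within TCACGTGA there, holds 203 annotated exon bases and is not shown. Capitals mark CACGTG and GGGCGG.
Igf2r, chr17:12769707-12769956, minus strand: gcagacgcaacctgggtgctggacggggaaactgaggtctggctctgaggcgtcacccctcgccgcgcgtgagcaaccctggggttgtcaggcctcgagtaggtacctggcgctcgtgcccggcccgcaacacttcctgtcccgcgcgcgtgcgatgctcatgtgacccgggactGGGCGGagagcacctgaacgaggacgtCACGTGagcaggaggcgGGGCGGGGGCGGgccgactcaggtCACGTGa
Nagpa, chr16:5204013-5204262, minus strand: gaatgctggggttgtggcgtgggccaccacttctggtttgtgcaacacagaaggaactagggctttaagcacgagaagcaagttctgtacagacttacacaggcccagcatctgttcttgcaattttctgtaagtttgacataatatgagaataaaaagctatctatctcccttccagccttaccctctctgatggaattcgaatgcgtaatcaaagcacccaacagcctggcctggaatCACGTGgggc
The window of Igf2r holds 2 copies of CACGTG, which begin 48 and 7 bases before the start, and 3 of GGGCGG. Both copies of CACGTG stand within the longer TCACGTGA, which 0.785% of windows hold. The window of Nagpa holds 1 CACGTG, 10 bases before the start, and no GGGCGG. A match describes these letters only.

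All 10 genes passed the filter on low values, which asked for 10 normalized counts in 1 or more of the libraries compared. Per kilobase of annotated exon, the mean levels in WT libraries ran from 80.0 normalized counts for Gga3 to 699.8 for Gga1. Gga1 stood first, followed by Sort1 (490.5), Scarb2 (368.9), Igf2r (280.2), M6pr (191.5), Gnptg (176.4), Gga2 (132.4), Nagpa (121.1), Gnptab (85.3) and Gga3. Of the 9 pairs of neighbours in this order, 7 had ranges that overlapped between libraries, and 2 did not: Gga1 against Sort1, and Igf2r against M6pr. By mean, the 3 GGA genes thus spanned the whole scale, and the catalytic Gnptab lay below its partner Gnptg. The range of Gga3 (70.3 to 84.9) lay within that of Gnptab (60.3 to 114.8). The order depends on the length used, as Gga3 has 6245 bases of annotated exon and a transcript of 3751 bases.

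The order differed between groups at its top and further down. In KO libraries Sort1 came first with 810.0 per kilobase and Gga1 second with 602.7, though their ranges met (697.2 to 869.6 and 497.1 to 698.7). In AAV libraries Gga1 was again first with 639.3 and Sort1 second with 393.5, and their ranges did not overlap. By mean, Gnptab took place 9 in WT, 7 in KO and 10 in AAV libraries, and Gga3 places 10, 10 and 8. Igf2r stood above Scarb2 in KO libraries only, with ranges that overlapped. Across all 3 groups the means were highest in WT libraries for 7 genes, in KO libraries for 2 (Sort1 and Gnptab) and in AAV libraries for 1 (Gga3). The lowest mean lay in AAV libraries for 6 genes, in KO libraries for 3 and in WT libraries for 1.

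**Figure D1:**
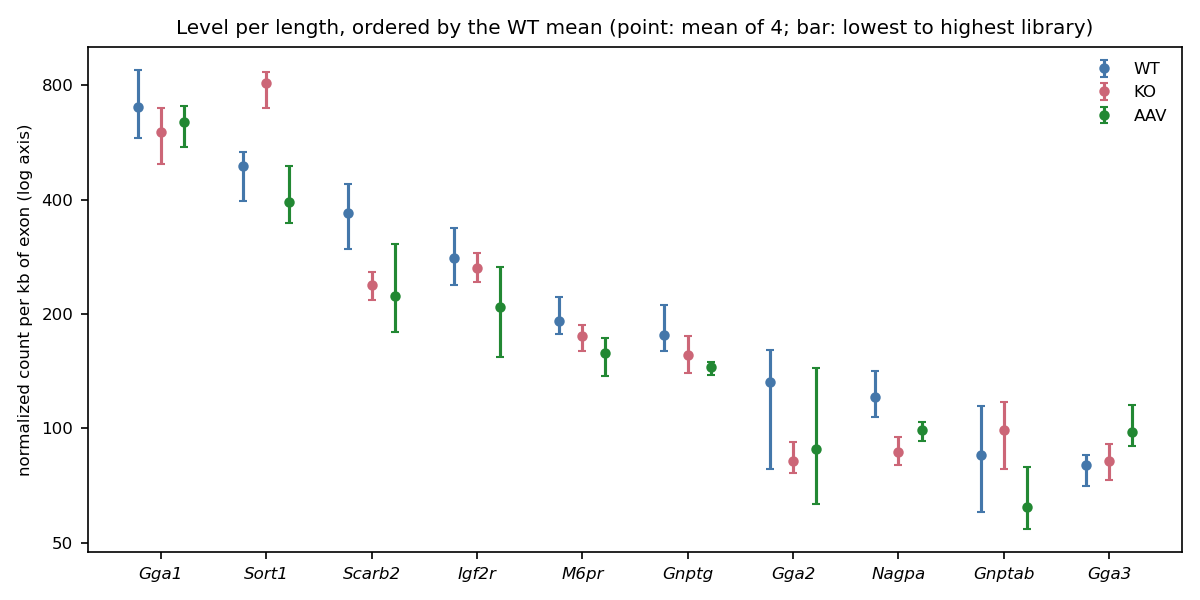
Mean normalized count per kilobase of exon of the 10 genes (log axis), ordered by the WT mean, with bars from the lowest to the highest of 4 libraries. Sort1 is the gene whose KO range, 697.2 to 869.6, lies clear above its WT and AAV ranges.

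The first comparison, KO against WT, asks how the RNA of the sorting genes differed between the libraries labelled knock-out and wild-type. Sort1 was higher, and Scarb2 and Nagpa were lower, in KO than in WT libraries, each by less than a doubling or halving. Thus 3 of the 10 genes passed (limma, adjusted p under 0.05), where 27.6% of the 14859 genes tested passed (12.3% higher and 15.3% lower), and 0 of 10 also changed by a log2 value of at least 1, as 13.9% of all genes did. The share of the 10 genes called was near that of all genes. Their median log2 difference was -0.15, beside 0.02 over all genes tested, and 7 of 10 lay below 0. Groups did not overlap for 3 of 10 genes, beside 28.3% of all genes tested.

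Among the tagging enzymes, Nagpa (chromosome 16, 5195289 to 5204012, minus strand) was measured at 293, 336, 254 and 265 normalized counts in WT libraries and at 193, 211, 189 and 225 in KO libraries. Every KO library lay below every WT library, and the KO mean was 0.713 times the WT mean. The log2 difference was -0.48 ± 0.14 (SE, adjusted p = 0.0337 by limma). Nagpa has a GC content of 60.4%, and with log2 values corrected for GC content the difference was -0.10 (adjusted p = 0.542). With a correction for exon length it was -0.31 (adjusted p = 0.107). Of the 8 fits that left out 1 library, it was called only in the one without WT replicate 3 (adjusted p up to 0.0897 in the others), with differences from -0.54 to -0.40.

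Gnptab (chromosome 10, 88379132 to 88447329, plus strand), the precursor of the catalytic subunits, had 517, 459, 675 and 355 in WT libraries and 636, 544, 459 and 689 in KO libraries. Its groups overlapped, with a log2 difference of 0.24 (95% interval -0.23 to 0.70). Gnptg (chromosome 17, 25233331 to 25240124, minus strand), the regulatory subunit, had 382, 475, 360 and 370 against 345, 349, 314 and 394, a difference of -0.17 (-0.49 to 0.14). Neither passed the test. Gnptg shares 49.5% of its exon bases with Unkl on the opposite strand, whose mean normalized count was 60.1, and the strand setting of the counting is not given in the sources used here, so that a part of its reads may belong to Unkl.

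Neither mannose-6-phosphate receptor passed between KO and WT. Igf2r (chromosome 17, 12682406 to 12769664, minus strand) had 3134, 2726, 2221 and 2352 in WT libraries and 2692, 2342, 2266 and 2567 in KO libraries. The KO values lay within the WT range, and the log2 difference was -0.07 with a 95% interval of -0.37 to 0.23. M6pr (chromosome 6, 122308720 to 122317680, plus strand) had 924, 764, 740 and 767 against 780, 734, 665 and 744, a difference of -0.13 (-0.39 to 0.14). A 1.5-fold change of either receptor's RNA in either direction lies outside these intervals. Igf2r kept 3.19 to 3.45 times the normalized count of M6pr in KO libraries and 3.0 to 3.57 times in WT libraries. M6pr has a pseudogene copy, M6pr-ps, 97.8% identical over 834 bases of its transcript, with which reads may be shared. Gga2 has a near copy, Gm5990, 95.6% identical over 744 bases, and Gga3 has Gm20691, 100% identical over 333 bases. Antisense genes share 7.37% of the exon bases of Gga2 (Gm44987) and 4.47% of those of Sort1 (Gm12523), and Mrps7, with a mean normalized count of 2655, shares 2.03% of those of Gga3.

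Sortilin had the largest rise and Scarb2 the largest called fall of the 10 genes. Sort1 (chromosome 3, 108284082 to 108361511, plus strand) had 4048, 3839, 3969 and 2996 in WT libraries and 6547, 6119, 5277 and 6582 in KO libraries. The lowest KO library lay above the highest WT library, and the KO mean was 1.65 times the WT mean. The log2 difference was 0.73 ± 0.13 (SE, adjusted p = 0.00556 by limma), the 766th lowest p of the 14859 genes tested. It was called in each of the 8 fits without 1 library (0.63 to 0.80).

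Scarb2 (chromosome 5, 92441314 to 92506833, minus strand) had 2765, 2411, 1861 and 2237 in WT libraries and 1499, 1622, 1519 and 1368 in KO libraries. The highest KO library lay below the lowest WT library, which was WT replicate 3. The difference was -0.61 ± 0.14 (SE, adjusted p = 0.0114 by limma), and it was called in each of the 8 fits without 1 library (-0.71 to -0.52).

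GGA adaptors gave no call between KO and WT, but Gga2 stood close to the threshold. Gga2 (chromosome 7, 121986722 to 122021222, minus strand) had 1504, 1566, 761 and 1342 in WT libraries and 900, 784, 776 and 746 in KO libraries. The log2 difference was -0.64 ± 0.22 (SE, adjusted p = 0.0504 by limma). WT replicate 3 alone lay within the KO range, and without it the difference was -0.88 (adjusted p = 0.000208). That fit called 7163 genes in all (48.4%). Gga2 was also called by DESeq2 (-0.70, adjusted p = 0.0116) and edgeR (-0.70, 0.0369) on the recovered reads and by limma with the GC correction (-0.61, 0.0405) or the exon length correction (-0.87, 0.0326). It was not called in 5 of the 10 alternatives, nor in 7 of the 8 fits without 1 library (adjusted p up to 0.125). Gga1 (chromosome 15, 78877190 to 78894585, plus strand) differed by -0.21 (-0.56 to 0.15), and by 0.31 with the GC correction, its own GC content being 62.2%. Gga3 (chromosome 11, 115584255 to 115604051, minus strand) differed by 0.03 (-0.26 to 0.32).

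**Figure D2:**
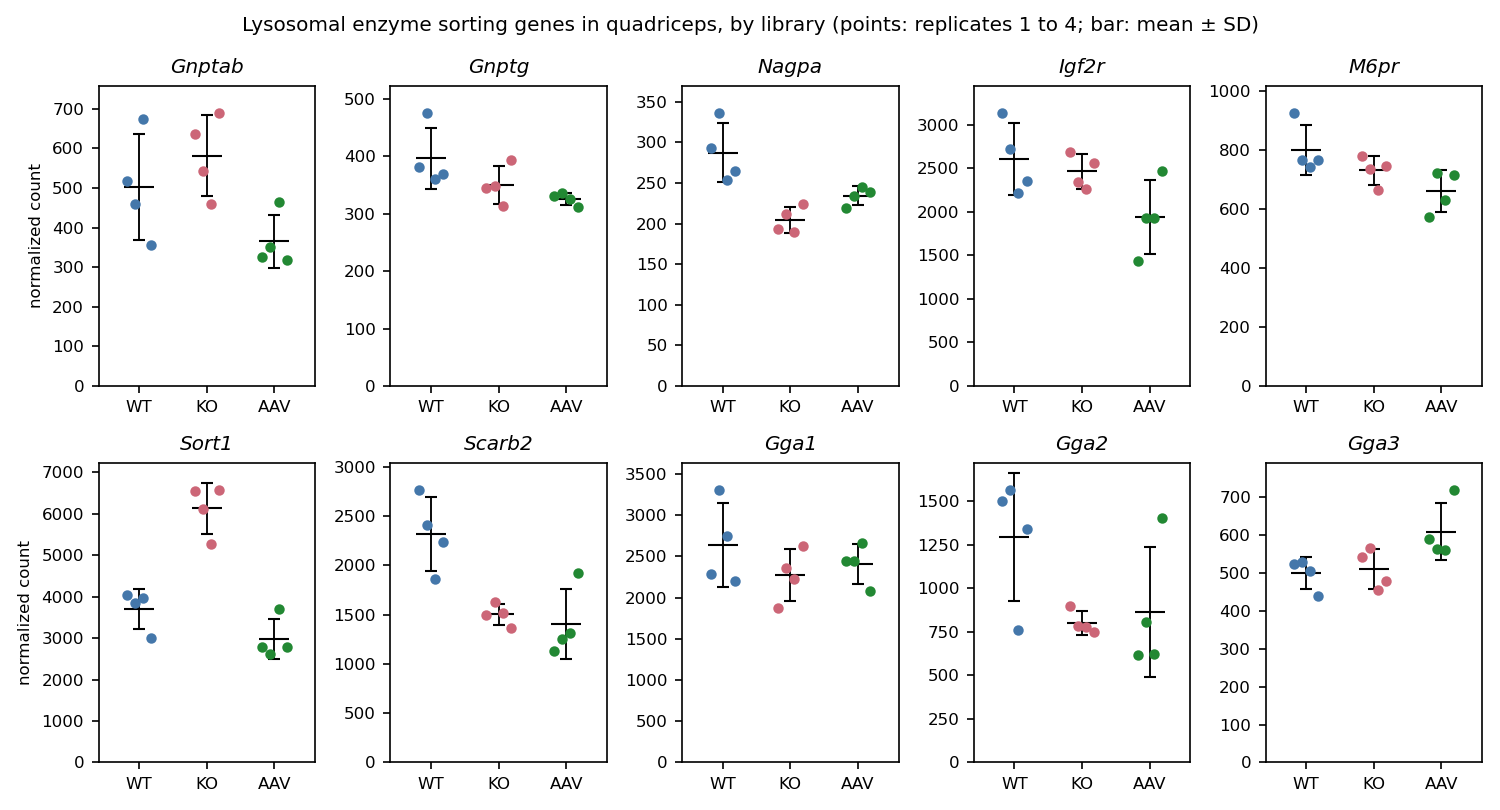
Normalized counts of the 10 genes in the 4 libraries of each group, replicates 1 to 4 from left to right, with the mean and SD. All 4 KO libraries of Sort1 lie above the 8 others, and the KO libraries of Scarb2 and Nagpa lie below the WT libraries.

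The second comparison, AAV against KO, asks how the RNA of these genes differed between the libraries labelled as treated and as PBS-injected. Sort1 and Gnptab were lower in AAV than in KO libraries, and none of the 10 passed as higher. Thus 2 of 10 passed (limma, adjusted p under 0.05), where 26.3% of 14894 genes tested passed (12.8% higher and 13.4% lower), and 1 of 10, Sort1, also changed by a log2 value of at least 1, where 8.98% of all genes did. The median of the 10 genes was -0.11, beside 0.04 over all genes. Scaling by total reads moved both medians, to 0.05 and 0.20, and the calls were still 2. Over all genes that scaling called 16.1% higher and 8.53% lower, and Sort1 was then at -0.88, within the log2 value of 1, as it was with the exon length correction (-0.96). Groups did not overlap for 1 gene, beside 30.6% of all genes tested.

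Sort1 had 2787, 2628, 3710 and 2791 in AAV libraries, all below the 5277 of the lowest KO library. The AAV mean was 0.486 times the KO mean, a log2 difference of -1.05 ± 0.13 (SE, adjusted p = 0.00169 by limma), the 110th lowest p of 14894. Fits without 1 library gave -1.16 to -0.99, each called. Against WT the AAV libraries of Sort1 differed by -0.32 (95% interval -0.68 to 0.04), and the groups overlapped.

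Sort1 can be read against Igf2r within each library, free of scaling. The ratio of Sort1 to Igf2r normalized counts was 1.29, 1.41, 1.79 and 1.27 in WT libraries and 2.43, 2.61, 2.33 and 2.56 in KO libraries. In AAV libraries it was 1.95, 1.36, 1.93 and 1.13. The KO range lay above both others, whose ranges overlapped.

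Gnptab had 327, 350, 464 and 318 in AAV libraries, and the highest of them exceeded the lowest KO library (459) by a few counts. The difference was -0.67 ± 0.17 (SE, adjusted p = 0.0194 by limma). The call was lost without KO replicate 1 (adjusted p = 0.0583), KO replicate 4 (0.0596) or AAV replicate 1 (0.0534), and the differences over the 8 such fits ran from -0.79 to -0.58. Its partner Gnptg had 331, 336, 326 and 311, a difference of -0.10 (-0.36 to 0.16). The ratio of Gnptab to Gnptg normalized counts, not divided by exon length, was 1.46 to 1.84 in KO libraries, 0.988 to 1.42 in AAV libraries and 0.960 to 1.87 in WT libraries.

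The genes that were lower in KO than in WT libraries did not rise in AAV libraries by this test. Nagpa had 219, 235, 246 and 239, between the means of KO (204.6) and WT (287.1), with a difference from KO of 0.20 (-0.07 to 0.47). Scarb2 had 1126, 1248, 1314 and 1917, a difference from KO of -0.13 (-0.48 to 0.23). All AAV libraries of Scarb2 but replicate 4 thus lay below all KO libraries and replicate 4 above them.

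Igf2r had 1432, 1934, 1926 and 2475 in AAV libraries, with 3 of 4 below the lowest KO library. Its difference from KO was -0.37 ± 0.16 (SE, adjusted p = 0.105 by limma), which did not pass. Without AAV replicate 4 it was -0.49 (adjusted p = 0.0290), a fit in which 3 of the 10 genes were called, beside 22.1% of all genes tested. Without AAV replicate 1 it was -0.23 (adjusted p = 0.222), and with scaling by total reads -0.20 (adjusted p = 0.409). M6pr had 573, 721, 631 and 715, a difference of -0.15 (-0.41 to 0.10).

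Gga1 had 2439, 2446, 2666 and 2076 in AAV libraries and differed from KO by 0.09 (-0.20 to 0.38). Gga2 had 617, 807, 620 and 1406, a difference of 0.02 (-0.50 to 0.55) that became -0.24 without AAV replicate 4. Gga3 had 591, 564, 561 and 720, a difference of 0.25 (-0.03 to 0.53). None of the 3 adaptors passed, and Gga2 in AAV libraries had the widest spread of the 10 genes (coefficient of variation 43.2%), beside 3.31% for Gnptg there.

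**Figure D3:**
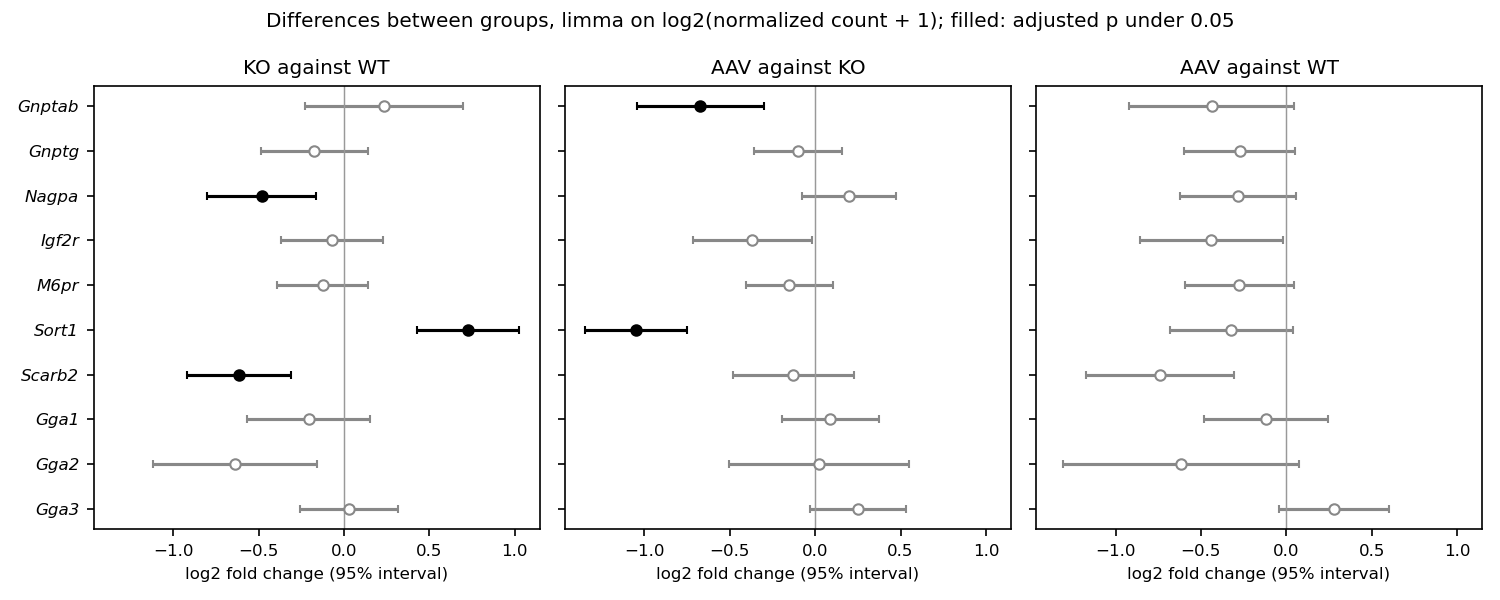
Log2 fold change of each gene with its 95% interval (limma on log2 of the normalized count plus 1) in the 3 comparisons, filled where the adjusted p was under 0.05. Filled points are Nagpa, Sort1 and Scarb2 in KO against WT and Gnptab and Sort1 in AAV against KO, and none in AAV against WT.

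The third comparison, AAV against WT, asks where the libraries labelled as treated stood relative to those labelled wild-type. None of the 10 genes passed (limma, adjusted p under 0.05), where 1.29% of the 14939 genes tested passed (0.951% higher and 0.341% lower, and 0.951% in either direction with a log2 value of at least 1). At an unadjusted p under 0.05, 2 of 10 passed, Igf2r and Scarb2, beside 18.2% of all genes tested. DESeq2 on the recovered reads called 1 of 10, Scarb2, beside 6.26% of all genes tested, and edgeR called 0, beside 1.09%. Of the 10 differences, 9 lay below 0, with a median of -0.30 beside -0.03 over all genes. Scaling by total reads put these medians at -0.15 and 0.12 and turned the sign of Gga1 (-0.12 to 0.04), with 1.9% of all genes called higher and 0.241% lower. Groups did not overlap for 4 of 10 genes (Gnptg, Nagpa and M6pr lower, Gga3 higher in AAV libraries), beside 11.7% of all genes tested.

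Scarb2 had the lowest p of the 10 genes in this comparison, with a difference of -0.74 ± 0.19 (SE, adjusted p = 0.0943 by limma). Its AAV mean was 0.604 times the WT mean, but AAV replicate 4 (1917) lay above WT replicate 3 (1861). Gga2 differed by -0.62 (-1.31 to 0.07) and Igf2r by -0.44 (-0.86 to -0.02). Gga3, the gene higher in AAV libraries, differed by 0.28 (-0.04 to 0.60).

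These results rest on the libraries that lay nearest to another group. WT replicate 3 had 761 normalized counts of Gga2 where the other WT libraries had 1342 to 1566, and AAV replicate 4 had 1406 where the other AAV libraries had 617 to 807. Without both libraries, a choice made after the data were seen, AAV against WT called 2037 genes (13.8%) and 3 of the 10: Scarb2 (-1.0, adjusted p = 0.00522), Gga2 (-1.12, adjusted p = 0.00463) and Igf2r (-0.64, adjusted p = 0.0463, limma), all lower in AAV libraries. Leaving out libraries that resemble another group makes the groups differ more by construction. Without WT replicate 3 alone or AAV replicate 4 alone, 0 of 10 were called, beside 2.97% and 0.6% of all genes tested. With other pairs left out, also chosen after the data were seen, 10 genes in all and 0 of the 10 were called, both without WT replicate 2 and AAV replicate 4, whose Gaa stood apart from their groups, and without WT replicates 2 and 3. The summed macrophage markers split the same way. They stood at 1526 in WT replicate 3 against 4335 to 5041 in the other WT libraries. In AAV replicate 4 they stood at 4615 against 892 to 2003 in the other AAV libraries. Cd163 of that list was instead highest of its group in WT replicate 3 (119). Endothelial sums also set both libraries apart, at 5293 against 2309 to 3122 and at 4867 against 5325 to 7405. AAV replicate 4, but not WT replicate 3, stood apart in slow myofibre (2178 against 5157 to 21819) and fibroblast sums (26343.5 against 10049 to 18589.5). The part of these markers in these differences was not tested.

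**Figure D4:**
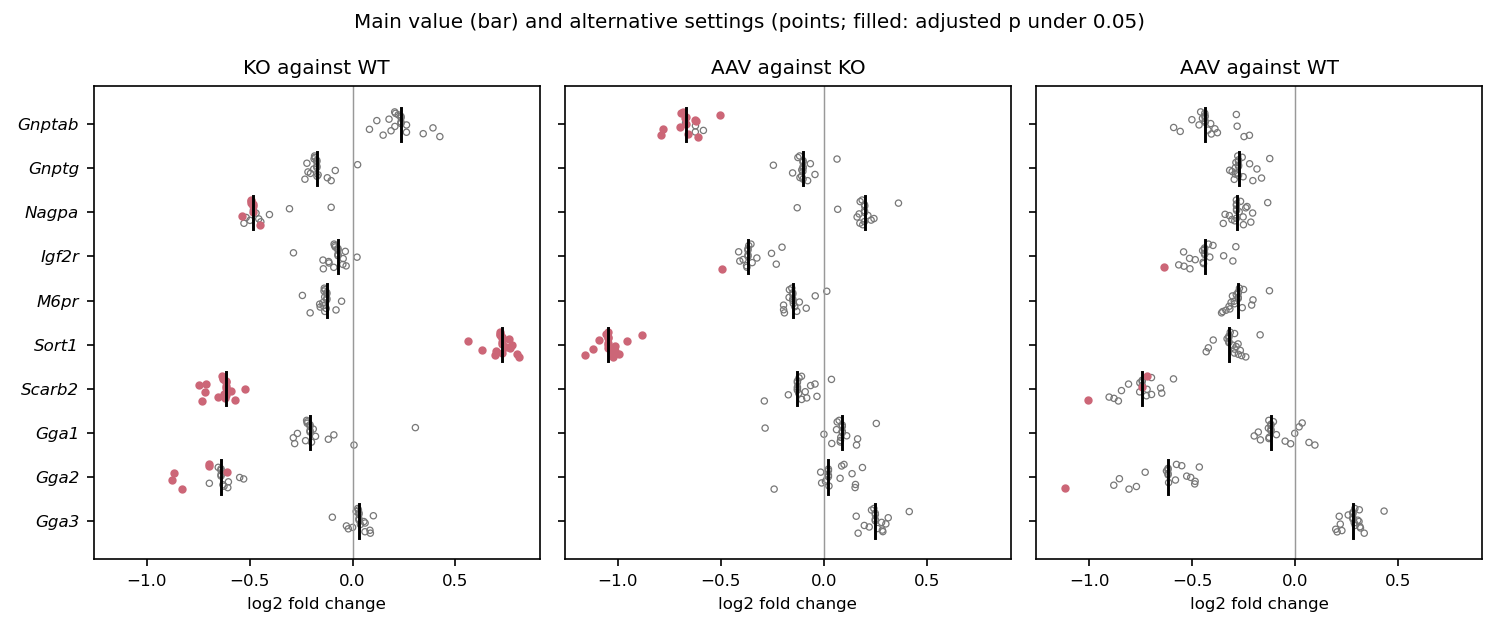
Log2 fold change of each gene in the 3 comparisons as reported (bar) and under every alternative test, scaling, correction and set of libraries (points, filled where the adjusted p was under 0.05). Points of Sort1 and Scarb2 in KO against WT and of Sort1 in AAV against KO are filled throughout, and those of the other calls are not.

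The partners of these genes were read from 6 lists of the same pathway, of which 56 genes were tested. Between KO and WT, 7 were higher and 10 lower (30.4%, beside 27.6% of all genes, 12.3% higher and 15.3% lower). Between AAV and KO, 6 were higher and 15 lower (37.5%, beside 26.3%, 12.8% higher and 13.4% lower). The counts of each list below stand beside the same shares. Between AAV and WT, 0 of 56 passed, where 1.29% of all genes did. Their medians were -0.03, -0.09 and -0.19 in the 3 comparisons.

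AP-1 and clathrin form the coat that GGA proteins work with. Of 15 genes, 0 were higher (beside 12.3% of all genes) and 4 lower (beside 15.3%) in KO than in WT libraries: Clta, a clathrin light chain (-1.23 ± 0.21 SE), Ap1s1, the small AP-1 subunit (-0.99 ± 0.24), Pacs1, a sorting connector (-0.60 ± 0.14), and Cltb, the other light chain (-0.57 ± 0.13), with adjusted p from 0.00405 to 0.0145 by limma. In AAV against KO, 3 were higher and 4 lower. Clta rose by 0.59 and Ap1s1 by 0.78, and Ap1g2, a gamma subunit, rose by 0.96. Synrg (-0.51), Clint1 (-0.57), Arf1 (-0.46) and Ap1g1 (-0.45) fell, of which Arf1 is the GTPase that brings GGA and AP-1 coats to the Golgi. Of the 8 fits without 1 library, the calls in KO against WT were kept in all 8, and those in AAV against KO in 1 (Ap1g1) to 7 (Synrg). The list median was -0.04 and then -0.01.

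Retromer returns empty receptors, sortilin and Igf2r among them, from endosomes to the Golgi. The list of this return route also holds the GARP tether at the Golgi, to which Vps54 belongs, and Rab and cargo-binding partners. In KO against WT 3 of its 17 genes were higher (beside 12.3% of all genes) and 1 lower (beside 15.3%), with a list median of -0.01. Rab7, the late endosome GTPase that recruits retromer, had 4461, 3906, 4613 and 3372 in WT libraries and 8592, 9478, 6886 and 7896 in KO libraries. Every KO library of Rab7 exceeded every WT library, with a difference of 1.01 ± 0.14 (SE, adjusted p = 0.00203 by limma). Snx6 (0.44) and Vps54 (0.59) were also higher, and Snx3 (-0.34) was lower. Rab7 was called in each of the 8 fits without 1 library, Snx6 in 3, Vps54 in 1 and Snx3 in 2 of them.

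In AAV against KO 1 of the 17 genes was higher (beside 12.8% of all genes) and 7 lower (beside 13.4%), with a median of -0.31 beside 0.04 over all genes. Vps35, the core subunit that binds cargo, had 1053, 1347, 1257 and 802 in AAV libraries and 1764, 1963, 1814 and 2215 in KO libraries. The groups did not overlap, and the difference was -0.82 ± 0.16 (SE, adjusted p = 0.00903 by limma). Vps54 (-0.79), Rab7 (-0.71) and Vps29 (-0.43) fell too, and Snx1 (0.42) rose. Vps35, Vps54 and Rab7 were called in each of the 8 fits without 1 library, and Vps29 in 4 and Snx1 in 2 of them.

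Sortilin's partners in GLUT4 vesicles were 5 genes, of which 2 were higher and 0 lower in KO libraries. Tbc1d4, the Rab regulator that holds the vesicles back, had 549, 358, 694 and 683 in WT, 1147, 1253, 1337 and 1187 in KO and 573, 564, 595 and 522 in AAV libraries. Like Sort1, its KO libraries lay above all others, with differences of 1.15 ± 0.20 in KO against WT (adjusted p = 0.00446 by limma) and -1.12 ± 0.10 in AAV against KO (adjusted p = 0.000196). Slc2a4, which encodes GLUT4, was higher in KO by 0.66 ± 0.16 (adjusted p = 0.0141 by limma) and differed by -0.27 (-0.66 to 0.11) between AAV and KO. Lnpep, Vamp2 and Lrp1 did not pass in either comparison.

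Among 5 other sortilin family members and phosphatases that act on the tag, Sorcs1 was higher (2.94 ± 0.91) and Sorcs2 lower (-0.88 ± 0.29) in KO than in WT libraries. Sorcs1 had 6, 1, 84 and 5 in WT libraries and 53 to 93 in KO libraries, so that WT replicate 3 lay within the KO range, and it was called in 1 of the 8 fits without 1 library (2.21 to 4.0, and 1.53 to 3.44 over 10 alternatives). Sorcs2 was likewise called in 1 of them. Sorl1, a sorting receptor that binds retromer, fell by 0.71 in AAV against KO and was called in 2 of 8 such fits. Acp2 and Acp5, acid phosphatases that can remove the tag's phosphate, did not pass.

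Cargo enzymes and activators numbered 12. In KO against WT, Ctsb (-1.05 ± 0.18), Hexa (-1.28 ± 0.25) and Gusb (-0.66 ± 0.17) were lower, and only Gaa was higher (3.75 ± 1.03), against its labels. Hexa, a subunit of beta-hexosaminidase, had 5181, 6077, 2460 and 5360 in WT libraries and 1751 to 1970 in KO libraries. Ctsb and Hexa were called in each of the 8 fits without 1 library, Gusb in 3 and Gaa in 2 of them. The difference of Gaa ran from 3.24 to 5.07 over these fits and from 1.66 to 4.97 over 10 alternatives. In AAV against KO, Ctsb rose by 0.59, and Smpd1, acid sphingomyelinase, fell by 0.52, and Gaa fell by 3.28. Of the 8 fits without 1 library, Ctsb was called in 5, Smpd1 in 6 and Gaa in all 8 (-4.26 to -2.83). The Gaa call was lost in 3 of 9 alternatives, with DESeq2, edgeR and all 12 libraries in one fit (adjusted p up to 0.0987), and its difference over the 9 ran from -3.58 to -2.08.

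The growth factor ligand of Igf2r did move. Igf2 had 1977, 2460, 757 and 3656 in WT, 582, 778, 623 and 729 in KO and 1446, 927, 829.1 and 1725 in AAV libraries. WT replicate 3 alone overlapped the KO libraries, and all AAV libraries lay above them. The differences were -1.51 ± 0.39 in KO against WT (adjusted p = 0.0205 by limma) and 0.80 ± 0.23 in AAV against KO (adjusted p = 0.0284), each called in 4 of the 8 fits without 1 library. Airn, the RNA transcribed antisense to Igf2r, shares no annotated exon base with it and did not pass (0.39, adjusted p = 0.0689, and -0.27, adjusted p = 0.120).

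**Figure D5:**
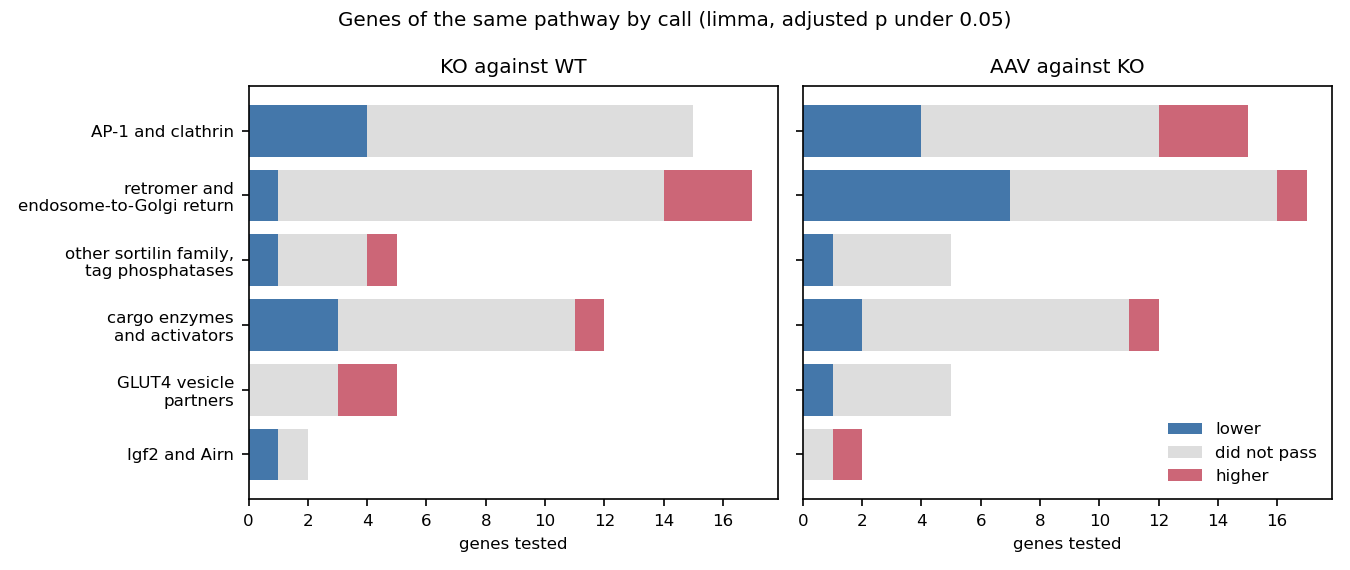
Number of genes tested in each of the 6 pathway lists that were lower, did not pass or were higher in KO against WT and in AAV against KO (limma, adjusted p under 0.05). The list of retromer and endosome-to-Golgi return shows 7 lower and 1 higher in AAV against KO.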

How the data were processed

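Quadriceps libraries were grouped by their labels, 4 per group. Reads were trimmed by the authors (Trim Galore 0.4.1), aligned to GRCm38 (STAR), restricted to single-location alignments and assigned to genes (HTSeq 0.6.1). Genes that reached 10 reads in 1 or more libraries were kept, and DESeq2 size factors normalized the counts. The deposited signal is this normalized count. Whole reads were recovered for 100% of values (within 0.1 read). The authors' deposited tables also hold log2 fold changes, their standard errors and test statistics (a score), and p-values and adjusted p-values of DESeq2 1.16.1, which were not used. No per-sample column was left unused (0). The symbol Ap1g1 stood on 2 rows, and the one with that gene's identifier was kept.

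The members and lists were chosen with earlier results of these data known. Because the deposited values are normalized, limma 3.58.1 with a trend was fitted to log2(value + 1) over the genes that reached 10 in 1 or more of the 8 libraries of a comparison, with Benjamini-Hochberg adjustment and 95% intervals. Members and Gaa were named, and from other lists called genes, at most 4 per direction with the lowest adjusted p, or any gene of a list of up to 6. Alternatives were DESeq2 1.42.0 and edgeR 4.0.16 on recovered reads, scaling by total reads, no filter, a pseudocount of 0.1, GC and length corrections, a replicate block, all 12 libraries in one fit, and libraries left out. The tests were tried on simulated data. Annotation was GENCODE M21 on GRCm38. Copies were sought with BLAST+ 2.17.0 at 90% identity over at least 300 bases and 50% of the copy. Levels per kilobase used the length of all annotated exons. Software was R 4.3.3, Python 3.11.15 and matplotlib 3.10.9. Read numbers limit precision for genes with few reads.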

Additional observations from a re-analysis of the deposited data

Results flagged for a closer look

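Of 33 groups of 4 libraries tested for a sample far from the others (10 genes and Gaa), 4 held one, where chance gives about 1 in 20 groups. The 10 genes made up 30 of these groups, with a flag in Sort1 and M6pr alone, and the other flags were of Gaa. Sort1 was at 3709.5 in AAV replicate 3, and the next AAV library was at 2790.7. M6pr was at 923.9 in WT replicate 1, and the next WT library was at 766.6. Gaa was at 14640.2 in WT replicate 2 and at 9854.3 in AAV replicate 4, while the next libraries of those groups were at 460.3 and 946.8. No explanation was tested for any of them.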

How the results depend on the processing

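Over 10 genes and 3 comparisons, 550 values under other settings were compared with those reported: 505 kept their sign and their side of the threshold, 14 lost a call, 12 gained one and 19 changed sign. In KO against WT, Sort1 and Scarb2 were called under every setting run, as was Sort1 in AAV against KO. The cause of the other changes was not tested.

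The labels number the replicates and name no pairing of animals. Same-numbered libraries did not deviate from their group means together in every pair (r across genes from -0.36 to 0.56). These correlations cannot show whether animals were paired. With a replicate block, 2, 1 and 0 of the 10 genes were called in KO against WT, AAV against KO and AAV against WT, and 3062, 2179 and 132 of all genes; Nagpa (adjusted p = 0.0749 by limma) and Gnptab (0.0627) lost their calls.

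In AAV against WT, DESeq2 and the fit of all 12 libraries each called 1 of the 10 genes, Scarb2, and 935 and 901 of all genes, and scaling by total reads called 320. Without 1 or 2 libraries, KO against WT called 2 to 4 of the 10 genes and 2353 to 7163 of all genes, AAV against KO 1 to 3 and 1961 to 5071, and AAV against WT 0 to 3 and 10 to 2037.

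Sign changes were in differences that had not passed. With the GC correction Gga1 was at 0.31 in KO against WT, -0.28 in AAV against KO and 0.020 in AAV against WT, and Gga2 (-0.015) and Nagpa (-0.13) turned in AAV against KO. Scaling by total reads gave Gnptg 0.064, M6pr 0.015 and Scarb2 0.037 in AAV against KO and Gga1 0.035 in AAV against WT. The length correction gave Gga3 -0.10 and Gnptg 0.025 in KO against WT. Gaa in AAV against WT was at -0.39 by DESeq2 and -0.34 by edgeR. Without 1 or 2 libraries, Gga2 ran from -0.24 to 0.15 in AAV against KO, Gga1 from -0.20 to 0.10 and Gaa from -1.02 to 1.79 in AAV against WT, and Gga1 from -0.29 to 0.0070, Gga3 from -0.030 to 0.087 and Igf2r from -0.14 to 0.022 in KO against WT. Depth differed 2.14-fold between libraries, and the fewest recovered reads of any of the 10 genes were 159, of Nagpa in AAV replicate 1.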
